A study of Bos taurus with 88 samples.

Results

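The change in the whole-blood transcriptome of Holstein dairy calves between 48 h and 72 h after birth was taken from the 16 RNAseq libraries that the labels give as breed H at these ages, of 88 libraries in the series. They come from 8 calves, each sampled at both ages and matched by its tag number. The series covers 22 calves from birth (0 h) to 168 h of age: the 8 Holstein (H) calves, which the labels describe as artificially fed colostrum at 5% of body weight, and 7 CL (Charolais × Limousin dams) and 7 LF (Limousin × Friesian dams) beef calves, which suckled their dams. Blood was drawn from the jugular vein, RNA was isolated with the Tempus system and single-end TruSeq mRNA libraries were counted with STAR on the UMD3.1 cattle genome. By the study's methods, H calves were separated from the dam soon after birth, fed colostrum of their own dam by tube and then by teat, and penned individually at both ages. The labels name no treatment that separates the ages, and what the calves were fed between them cannot be told apart from age. Dairy management and Holstein breed cannot be told apart in any comparison with beef calves.

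A newborn calf receives almost no antibody across the placenta. Immunoglobulin is taken up from colostrum through a gut wall that is permeable for about the first day, and the calf's own immune response develops over the following weeks. Whole blood holds neutrophils, lymphocytes, monocytes, platelets and reticulocytes, whose proportions shift in the first days of life. In such bulk samples, fewer cells of a type and less RNA per cell cannot be told apart. The deposited files name genes by Ensembl identifier (ENSBTAG) only. No identifier could be matched to a symbol, so blood cell markers, immune pathways and gene functions were not analysed here, and genes are given by identifier.

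Reads counted on genes ran from 17368423 to 25960137 at 48 h and from 15845098 to 24366554 at 72 h. The mean difference of 379000 reads was within the spread between calves (SD 3030000, higher at 72 h in 5 of 8 calves, exact paired permutation test, two-sided, adjusted p = 0.734 over 5 library measures). The smallest number of reads taken as detected, 3 counts, corresponded to 0.116 to 0.189 CPM (counts per 1000000 counts on genes). This floor covers counting error only. The share of multimapping reads, which STAR does not assign to genes, did not differ between the ages beyond the calves (mean difference 1.15 percentage points, SD 6.58, n = 8, exact paired permutation test, adjusted p = 0.734). The share of reads on no annotated gene was higher at 72 h in 2 of 8 calves and 20.5% at both ages in calf 8. Its mean difference was -3.15 percentage points (SD 3.15, n = 8), with p = 0.0625 in the exact paired permutation test and 0.312 after adjustment.

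The 72 h library of calf 5 stood apart from all others. Its root mean square (RMS) distance to the median of the other 7 calves at 72 h was 1.28 on the log2 CPM scale over 12479 genes, against 0.42 to 0.51 for 6 of the others and 0.87 for calf 6. For 70% of these genes its level lay outside the range of the other 7 calves, above it for 4228 genes and below it for 4512. In the other 72 h libraries this share was between 10 and 31.5%. The library correlated with the 3 other libraries of its own calf at r = 0.875 to 0.889 across genes, and with the 72 h libraries of other calves at 0.853 to 0.900. At 48 h, calf 5 was within the others, at a distance of 0.55 with 16.6% of genes outside their range. Its multimapping share was 11.5% at 48 h and 23.2% at 72 h, and its share of reads on no annotated gene 24.8% and 16.4%. Its total at 72 h, 21337069 counts, was close to the median. The part of these values in the results below was not tested, and the main results are therefore given with and without calf 5.

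Calf 6 differed in another way, at both ages. Its multimapping share was 49.1% at 48 h and 45.7% at 72 h, against 25.5% at most in the other 14 libraries, and its most counted gene took 23.1% and 23.6% of its counts. Its distance to the other calves was 0.88 at 48 h and 0.87 at 72 h. The difference of calf 6 was thus carried through both ages, whereas that of calf 5 was present at 72 h alone among the 4 ages, as the plot of distance by age shows.

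**Figure D1:**
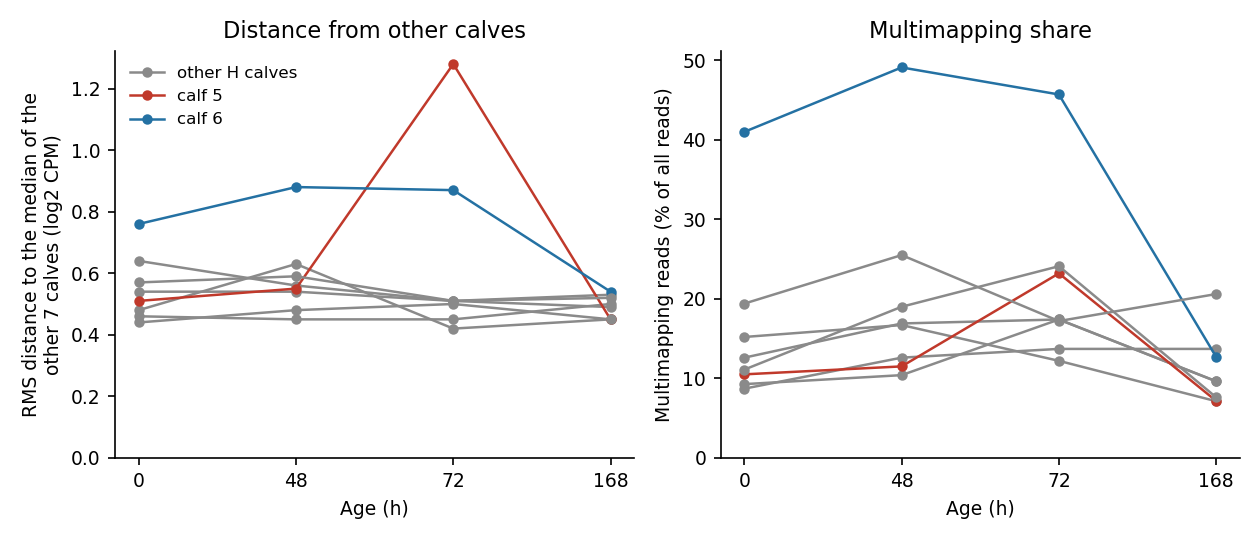
Left, RMS distance of each H library to the median of the other 7 calves of the same age (log2 CPM), and right, the share of multimapping reads, by age (h, evenly spaced categories), with 1 line per calf. Calf 5 rises to 1.28 at 72 h and lies among the others at the remaining ages, while calf 6 has the highest multimapping share at 0, 48 and 72 h.

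With all 8 calves, no gene was differentially expressed at 72 h versus 48 h. A DEG had to pass both a 1.5-fold change and an adjusted p of 0.05 (Benjamini-Hochberg). By this definition edgeR's quasi-likelihood test with the calf as a block called 0 of 12479 genes (0.0%) with a smallest adjusted p of 0.131. Without the fold change threshold the count was also 0. An unadjusted p-value under 0.05 was found for 936 genes (7.5%), of which 425 were higher and 511 lower at 72 h. DESeq2 with the same block called 18 of the same genes (0.144%), 7 higher and 11 lower.

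The fits also bound the size of the changes. The median absolute log2 fold change was 0.137 and the median standard error (SE) 0.171. The 95% interval of the fold change lay within 1.5-fold in both directions for 7104 genes (56.9%) and within 2-fold for 11106 (89.0%). Without calf 5 these shares were 68.7% and 91%. For the remaining genes the interval reached past that size, or lay beyond it. The estimated fold change was 1.5 or more for 454 genes, 200 higher and 254 lower at 72 h, but without calf 5 for 736 genes, of which more were higher (415) than lower (321). Precision followed the level of the gene, with a median SE of 0.233 in the lowest of 3 equal classes of genes by mean level, 0.155 in the middle class and 0.137 in the highest. The share of genes with an unadjusted p under 0.05 was 9.54%, 6.18% and 6.78% in these classes, and 21.4%, 21.5% and 18.4% without calf 5.

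Without calf 5, 78 of 12450 genes were DEG (0.627%), 41 upregulated and 37 downregulated at 72 h. The median SE fell to 0.124, and 2548 genes (20.5%) had an unadjusted p under 0.05, 1384 higher and 1164 lower. DESeq2 called 335 genes without calf 5 (2.69%), 231 of them higher at 72 h. When any other calf was left out in place of calf 5, edgeR called 0 genes, the smallest adjusted p was between 0.119 and 0.796, and the share with an unadjusted p under 0.05 was 4.01 to 8.77%. The 78 calls were themselves sensitive to the calves kept. Leaving out 1 further calf gave 23 DEG without calf 1, 10 without calf 2, 40 without calf 3, 55 without calf 4, 21 without calf 6, 21 without calf 7 and 9 without calf 8. Without the block by calf the count was 0, with 1462 genes at an unadjusted p under 0.05 in edgeR. Of the 18 genes DESeq2 called with all 8 calves, 11 (61.1%) were among the 78, which is 14.1% of the 78. Both fits use the calves other than calf 5, so this overlap is not a separate check.

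**Figure D2:**
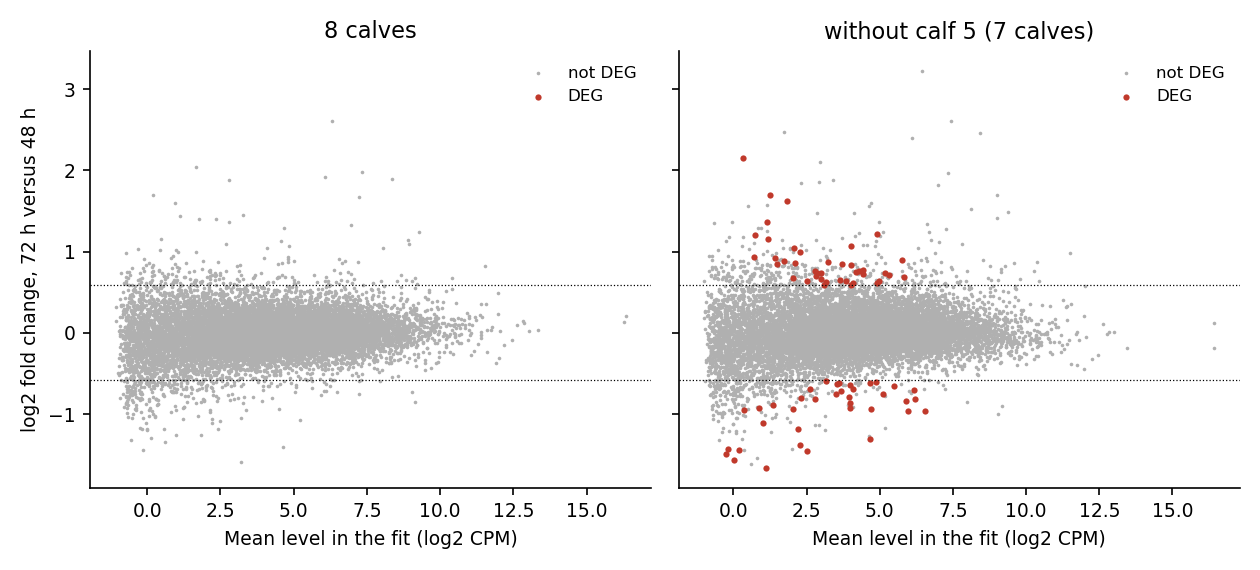
Log2 fold change at 72 h versus 48 h against mean level (log2 CPM) for each gene tested, with all 8 H calves (left) and without calf 5 (right), where red points are DEG and dotted lines mark a fold change of 1.5. No point is a DEG on the left and 78 are on the right, 37 of them in the lowest of 3 equal classes of genes by level.

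The genes closest to the threshold with all 8 calves are given as values, since edgeR called none of them. The 6 genes lower at 72 h with the smallest p had log2 fold changes from -1.40 to -0.84 and adjusted p from 0.131 to 0.533 (edgeR), and the 6 higher genes had 0.50 to 0.72 and 0.533 throughout. Without calf 5, all 6 of the former and 1 of the latter were DEG. The first 2 of each direction are described by calf. They were chosen by p in these same calves, so their shared direction, separation of the ages and size are partly given by the choice.

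ENSBTAG00000018446 had the smallest p of all genes. At 48 h its level was 17.5 CPM at the lowest (calf 6), 37.9 at the median and 92.6 at the highest (calf 3). At 72 h it was 8.50 (calf 5), 13 and 29.5 (calf 3). The level was lower at 72 h in 8 of 8 calves, and 6 of the 8 libraries at 48 h lay above every library at 72 h. The change within a calf ranged from -2.19 to -0.54 on the log2 scale. The log2 fold change was -1.40 (SE 0.18, 95% interval -1.81 to -1.0) with an adjusted p of 0.13 in edgeR, and -1.30 (SE 0.15, adjusted p = 0.0076 in edgeR) without calf 5. DESeq2 gave an adjusted p of 9.1e-09 with all 8 calves. Calf 3 had the highest level at both ages. In CL calves the gene's log2 fold change was -0.80 (SE 0.40, adjusted p = 0.20 in edgeR) and in LF calves -0.76 (SE 0.40, adjusted p = 0.45 in edgeR), and it was lower at 72 h in 5 of 7 calves of each. At 168 h versus 0 h, samples that the comparison did not use, it was downregulated in H calves with a log2 fold change of -0.98 (SE 0.31, adjusted p = 0.026 in edgeR). In that comparison 13.6% of all 12647 genes tested were downregulated DEG, and this gene ranked 4789 by p.

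ENSBTAG00000004354 was also lower at 72 h in 8 of 8 calves. Its level ran from 7.18 CPM (calf 7) through a median of 19.8 to 46 (calf 3) at 48 h, and from 5.67 (calf 7) through 12.1 to 17.6 (calf 3) at 72 h. The ages overlapped, with 4 of 8 libraries at 48 h above the highest at 72 h, and the spread narrowed from an SD of 13.3 to 4.34 CPM (n = 8). The calf with the highest and the calf with the lowest level were the same at both ages. The log2 fold change was -0.84 (SE 0.14, adjusted p = 0.53 in edgeR), and -0.92 (SE 0.12, adjusted p = 0.011 in edgeR) without calf 5. DESeq2 gave an adjusted p of 0.00067 with all 8 calves. At 168 h versus 0 h its log2 fold change was -0.57 (SE 0.20, adjusted p = 0.034 in edgeR), which is under the 1.5-fold threshold. An adjusted p under 0.05 was found there for 5757 of 12647 genes.

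ENSBTAG00000016746 was the gene with the smallest p among those higher at 72 h. At 48 h it was at 3.32 CPM (calf 1), a median of 4.67 and 17.0 (calf 6), and at 72 h at 4.30 (calf 8), 6.99 and 35.3 (calf 6). It was higher at 72 h in 8 of 8 calves, by 0.04 to 1.05 on the log2 scale. Calf 6 was far above the other calves at both ages, and apart from it and calf 5 all 72 h values were at most 8.89 CPM. The log2 fold change was 0.62 (SE 0.14, adjusted p = 0.53 in edgeR), and 0.62 (SE 0.13, adjusted p = 0.057 in edgeR) without calf 5. DESeq2 gave an adjusted p of 0.032 with all 8 calves. The level went on rising in H calves to a mean of 22.6 CPM ± 6.22 (SD, n = 8) at 168 h from 3.16 ± 2.04 (SD, n = 8) at 0 h. Its log2 fold change over that time was 2.94 (SE 0.19, adjusted p = 1.2e-06 in edgeR), where 8.69% of all 12647 genes tested were upregulated DEG. From 48 h to 72 h it was upregulated in CL calves (log2 fold change 0.80, SE 0.16, adjusted p = 0.014 in edgeR), and in LF calves the value was 1.41 (SE 0.30, adjusted p = 0.055 in edgeR).

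ENSBTAG00000014435 was at 4.86 CPM (calf 7), a median of 7.93 and 12 (calf 5) at 48 h, and at 9.58 (calf 7), 11.7 and 17.5 (calf 6) at 72 h. It was higher at 72 h in 8 of 8 calves, although by only 0.01 on the log2 scale in calf 5, which was at 12 CPM at both ages. Of the 8 libraries at 48 h, 6 were below the lowest at 72 h. The log2 fold change was 0.58 (SE 0.13, adjusted p = 0.53 in edgeR), and 0.67 (SE 0.10, adjusted p = 0.028 in edgeR) without calf 5. DESeq2 gave an adjusted p of 0.032 with all 8 calves. This gene too was higher at 168 h, at a mean of 18.1 CPM ± 4.32 (SD, n = 8) against 2.42 ± 0.882 (SD, n = 8) at 0 h (log2 fold change 2.88, SE 0.14, adjusted p = 1.1e-07 in edgeR). From 48 h to 72 h its log2 fold change was 0.50 in CL calves (SE 0.09, adjusted p = 0.010 in edgeR) and 0.84 in LF calves (SE 0.17, adjusted p = 0.041 in edgeR), and only the latter passed the 1.5-fold threshold.

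**Figure D3:**
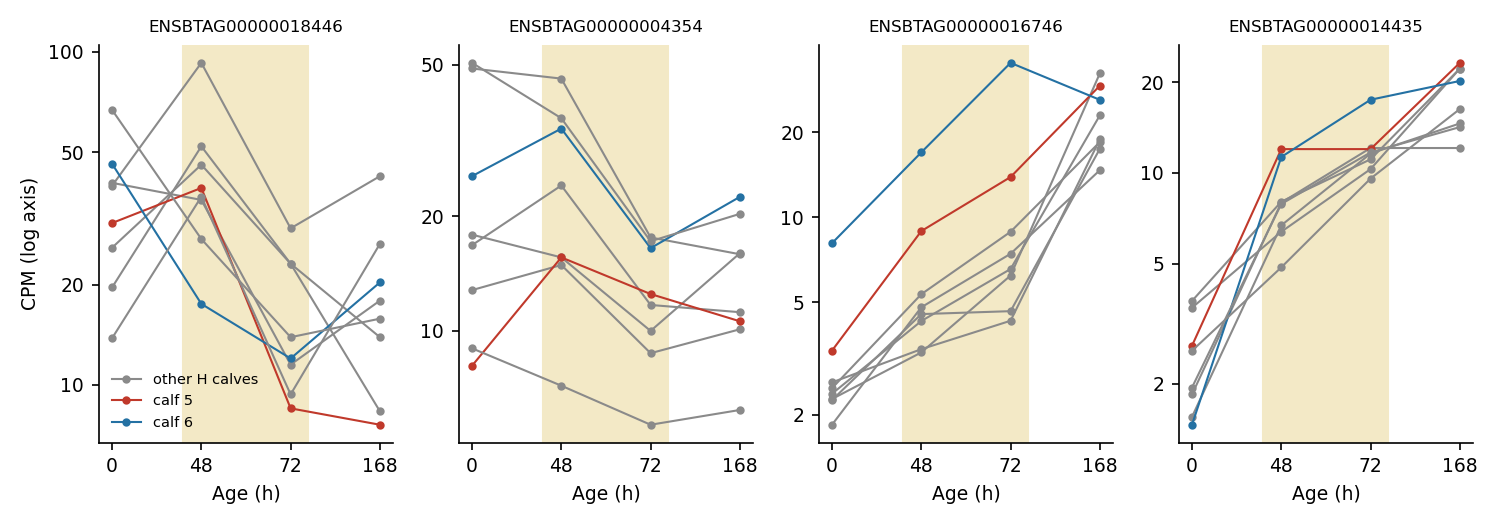
Level (CPM, log axis) of the 4 genes by age (h, evenly spaced categories), with 1 line per H calf and 48 h to 72 h shaded. The 2 genes on the left are lower at 72 h in 8 of 8 calves and the 2 on the right are higher in 8 of 8. The genes were chosen by the smallest p in this comparison, which favours a shared direction.

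The change from 48 h to 72 h differed in size and direction between calves. Its RMS over 12479 genes was 0.39 in calf 1, 0.40 in calf 2, 0.71 in calf 3, 0.56 in calf 4, 1.27 in calf 5, 0.58 in calf 6, 0.50 in calf 7 and 0.58 in calf 8 (log2 CPM). In calf 5, 4610 genes changed by at least 2-fold between the ages, against 313 to 1388 in the other 7 calves. From 48 h to 168 h, skipping its 72 h library, calf 5 changed by an RMS of 0.58, within the 0.51 to 0.91 of the others.

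Apart from calf 5, calves tended to change alike at the same genes, but weakly. Pearson's r between the changes of 2 calves across genes had a median of 0.093 over the 28 pairs, from -0.423 to 0.671, and was above 0 in 18. The highest value was between calves 3 and 8. Of the 7 pairs with calf 5, 1 was above 0, and their median was -0.189. The median of the 21 pairs without it was 0.185, with 17 above 0. The corresponding median was 0.349 over the 21 pairs of CL calves and 0.155 over the 21 pairs of LF calves. These correlations are descriptions, since the genes of a library share its depth and composition and each calf enters several pairs. Calf 4 correlated with the mean of the other calves at -0.058, and at 0.032 when calf 5 was left out of that mean, and calf 6 at -0.052 and 0.233. Calf 3, calf 8 and calf 1 had the highest values with the mean of all others, at 0.453, 0.417 and 0.384.

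Of the 12479 genes, 74 were higher at 72 h in all 8 calves, and 1.58% moved one way, up or down, in all 8. In the 7 calves other than calf 5, 517 were higher and 445 lower in every calf, together 7.71%. With fewer calves, a shared direction in all of them is also more likely by chance, so the 2 shares are not directly comparable.

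**Figure D4:**
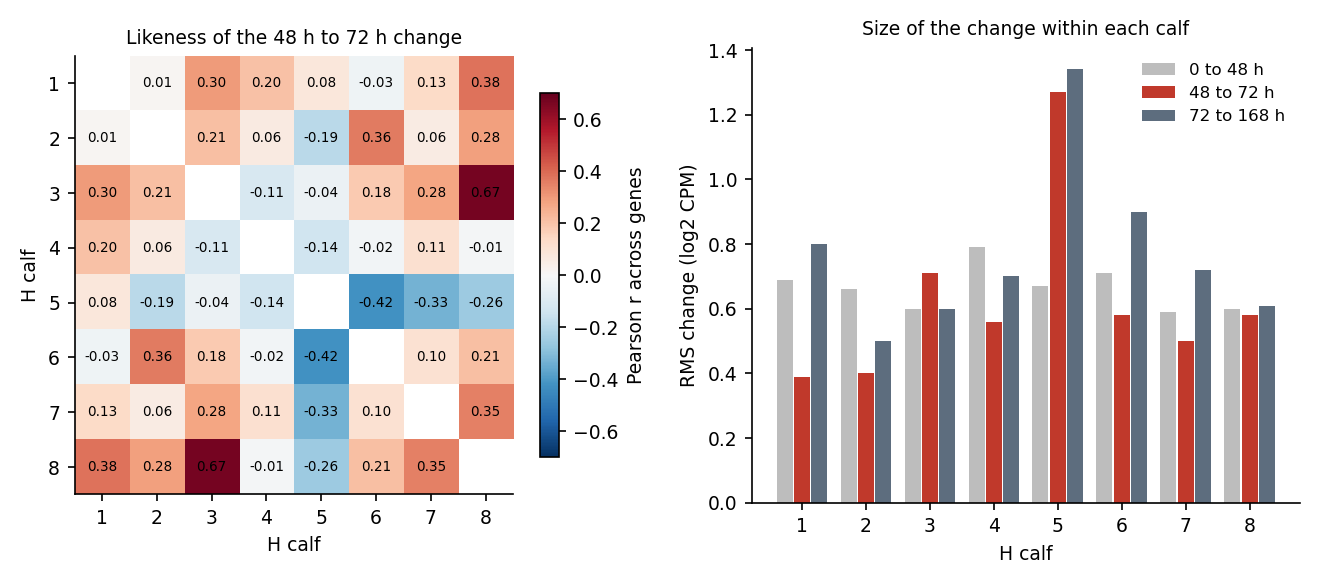
Left, Pearson's r across genes between the log2 changes from 48 h to 72 h of each pair of H calves, and right, the RMS change within each calf (log2 CPM) for 3 successive intervals. The row and column of calf 5 are mostly negative, down to -0.423, and its changes to and from 72 h are 1.27 and 1.34.

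The 78 genes called without calf 5 were chosen on the other 7 calves, without the values of calf 5. Calf 5 was itself set aside after its 72 h library was seen to stand apart. Its values at these genes are therefore not an independent check. The 41 upregulated genes had a median log2 fold change of 0.76, and 40 of them were higher at 72 h in each of the 7 calves. The 37 downregulated genes had a median of -0.86, from -1.66 to -0.59, and 34 were lower in each of the 7. Both the size and the shared direction in these 7 calves are partly given by the choice of the genes. In calf 5, 38 of the 41 upregulated genes moved the opposite way, with a median change of -1.63 and a range from -5.43 to 0.15. Of the 37 downregulated genes, 29 moved the opposite way in calf 5, with a median change of 0.70. Together 67 of the 78 (85.9%) were opposite in calf 5, against 60.7% of the 12423 genes tested with and without it. With calf 5 included, the medians were 0.53 for the 41 and -0.66 for the 36 still tested, and 19 and 27 of them had an unadjusted p under 0.05. The upregulated genes lay between 0.32 and 5.82 log2 CPM on average and the downregulated genes between -0.26 and 6.53, so none was among the most abundant transcripts.

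At 168 h versus 0 h, from samples not used in the comparison but from the same calves, most of these genes had the same direction. Of the 41 upregulated genes, 38 were higher at 168 h than at 0 h, 23 of them as DEG, while 8.69% of all 12647 genes tested were upregulated DEG there. Of the 36 downregulated genes tested, 32 were lower at 168 h and 24 were DEG, against 13.6% of all genes. Their medians at 168 h versus 0 h were 0.80 and -1.04, against 0.76 and -0.85 for the same genes from 48 h to 72 h without calf 5. The latter values are partly given by the choice of the genes. In all, 2 of the 77 genes were DEG in the opposite direction at 168 h. Across 12371 genes the log2 fold changes of the 2 comparisons correlated at r = 0.405 with all 8 calves, and at 0.453 across 12361 genes without calf 5.

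Beef calves offer the same 24 h interval in other animals. Between 48 h and 72 h, edgeR with the calf as a block called 625 of 12792 genes in CL calves (4.89%), 529 upregulated and 96 downregulated, and 1.23% of 12781 genes in LF calves, 138 upregulated and 19 downregulated. The median SE was 0.103 in CL calves and 0.124 in LF calves, against 0.171 in H calves and 0.124 in H calves without calf 5. The larger counts in beef calves do not by themselves show a difference from H calves, which was tested as an interaction.

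Genes called in beef calves mostly had the same sign in H calves with smaller values. Of the 519 genes upregulated in CL calves that were tested in H calves, 440 were higher at 72 h in H calves, with a median log2 fold change of 0.26 against 0.82 in CL calves. Of 86 downregulated genes, 61 were lower in H calves, and the medians were -0.16 and -0.68. Over all genes tested in both, 54.2% had the same sign. For LF calves, 93.3% of the upregulated genes tested were higher in H calves (medians 0.44 and 1.16) and 17 of 18 downregulated genes were lower (medians -0.42 and -0.78), against 59.8% with the same sign over all genes. Genes called in beef calves were selected for large values there, so that smaller medians in H calves are partly given by that choice. Without calf 5, 549 of 605 CL genes (90.7%) and 146 of 152 LF genes (96.1%) had the same sign in H calves, and the medians of the upregulated genes were 0.43 and 0.57.

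The reverse comparison started from the 78 genes called in H calves without calf 5. All 41 upregulated genes were higher at 72 h in CL calves, 27 as DEG, and all 41 were higher in LF calves, 17 as DEG. Of 34 downregulated genes tested in CL calves 33 were lower, 4 as DEG, and all 37 were lower in LF calves, 7 as DEG. Among all genes tested, 4.14% were upregulated and 0.75% downregulated DEG in CL calves. For LF calves these shares were 1.08% and 0.149%. The same sign was found for 71% of all genes in CL calves and 67.1% in LF calves. The median of the upregulated genes was 0.74 in CL and 0.69 in LF calves, beside 0.76 in H calves without calf 5. That of the downregulated genes was -0.40 in CL and -0.55 in LF calves. The genes were selected for large values in H calves, so these sizes are not compared on equal terms.

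**Figure D5:**
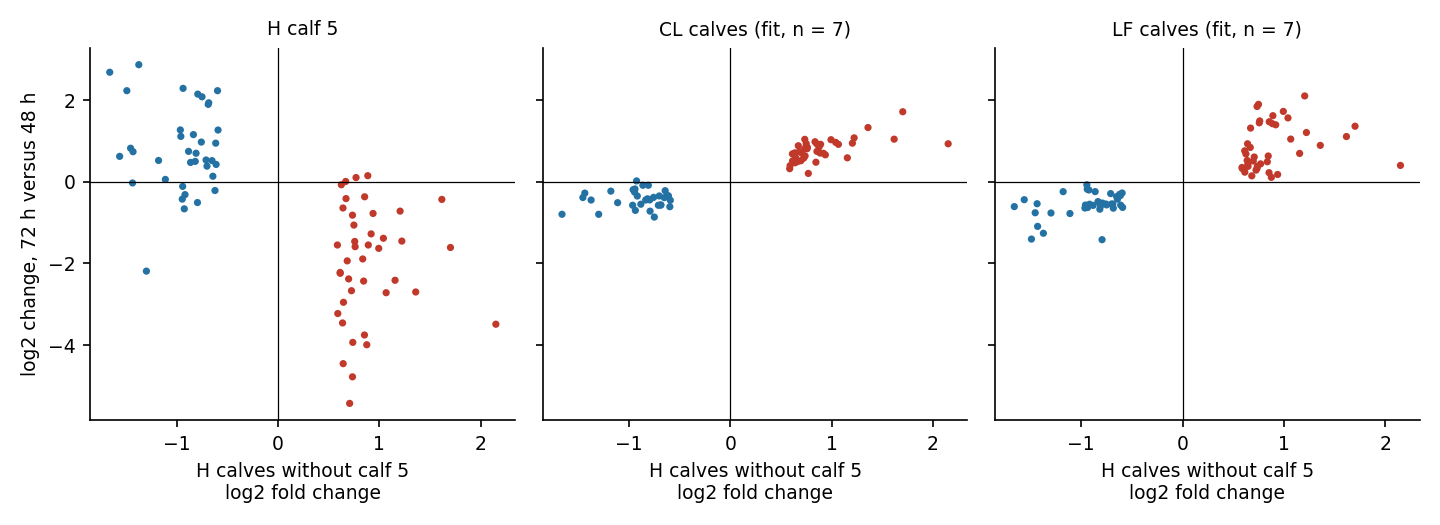
Log2 change at 72 h versus 48 h of the genes called in H calves without calf 5 (x axis, red for upregulated and blue for downregulated), against the change in H calf 5, the fit in CL calves (75 genes tested) and the fit in LF calves (78 genes). In calf 5 most points, 67 of 78, lie in the opposite quadrants, and in the beef calves 74 of 75 and 78 of 78 lie in the same quadrants.

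Across all genes, the log2 fold changes of H calves correlated with those of CL calves at r = 0.315 (12367 genes) and with those of LF calves at 0.419 (12387 genes). The 2 beef groups correlated at 0.463 (12628 genes). Without calf 5 the values for H calves were 0.561 with CL and 0.492 with LF calves. By calf, r with the CL change was 0.067 to 0.423 in 7 H calves and -0.477 in calf 5, and r with the LF change was 0.176 to 0.391 in 7 calves and -0.154 in calf 5. Genes are not independent replicates, and no test was made of these values.

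Tested directly, the change from 48 h to 72 h differed between H and CL calves at 1 of 13131 genes (0.00762%) and between H and LF calves at 0 of 13095 (0.0%, smallest adjusted p 0.993), by edgeR's interaction test with the calf as a block. An unadjusted p under 0.05 was found for 1184 genes (9.02%) against CL and 543 (4.15%) against LF calves. DESeq2 called 43 genes (0.327%) against CL calves, all with a lower change in H calves, and 0 against LF calves. Without calf 5, edgeR again called 1 and 0. The median SE of the difference was 0.221 against CL and 0.232 against LF calves, and its 95% interval lay within 1.5-fold for 37% and 38.6% of genes. Without calf 5 these shares were 57.9% and 53.8%. For the other genes a difference of that size was not excluded.

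The gene called against CL calves was ENSBTAG00000013366, named here because it was the only call, after its values were seen. In H calves its level ran from 3.58 CPM (calf 1) through a median of 6.54 to 15.2 (calf 6) at 48 h and from 2.32 (calf 8) through 7.74 to 15.4 (calf 6) at 72 h. The ages overlapped almost fully, and it was higher at 72 h in 3 of 8 calves. In CL calves the level was 0.0749 to 1.76 CPM (median 0.563) at 48 h, on 2 to 41 counts, and 2.56 to 15.6 CPM (median 4.35) at 72 h. The lowest count at 48 h, 2 in CL calf 2, was under the 3 counts taken as detected. No library of CL calves at 48 h reached the lowest at 72 h. The log2 fold change was -0.24 (SE 0.18, adjusted p = 0.82 in edgeR) in H calves and 2.82 (SE 0.35, adjusted p = 0.0055 in edgeR) in CL calves. The difference, H minus CL, was -3.07 (SE 0.41, adjusted p = 0.011 in edgeR), and -2.96 (SE 0.41, adjusted p = 0.021 in edgeR) without calf 5. Without the block by calf its adjusted p was 0.73. LF calves lay between, with a log2 fold change of 1.11 (SE 0.35, adjusted p = 0.18 in edgeR), higher at 72 h in 7 of 7 calves. At 72 h the ranges of all 3 breeds overlapped. At 48 h the means were 7.79 ± 3.85 CPM in H (SD, n = 8), 0.826 ± 0.697 in CL (SD, n = 7) and 1.53 ± 0.405 in LF calves (SD, n = 7).

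Within the first week, 48 h to 72 h was the shortest interval sampled and held the fewest calls in H calves. With the same test and block, 1397 genes (11.2%) were DEG between 0 h and 48 h and 1839 (14.7%) between 0 h and 72 h. Later, 1127 (8.99%) were DEG between 72 h and 168 h and 1327 (10.6%) between 48 h and 168 h. Leaving out calf 5 changed the comparisons that use 72 h more than the others, to 2394 between 0 h and 72 h and 1457 between 72 h and 168 h, against 1385 between 0 h and 48 h and 1185 between 48 h and 168 h. These comparisons share libraries with each other and with that of 72 h and 48 h. The RMS change within a calf had a median of 0.66 from 0 h to 48 h, 0.57 from 48 h to 72 h and 0.71 from 72 h to 168 h in H calves. In CL calves the medians were 0.68, 0.52 and 0.69, and in LF calves 0.82, 0.50 and 0.60. This measure includes noise between libraries, and its difference between breeds was not tested.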

How the data were processed

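The authors trimmed the reads with cutadapt, checked them with FastQC, aligned them with STAR to UMD3.1 (Ensembl annotation) and deposited raw read counts per gene for each library, without normalization. Per the labels, DESeq2 was used by the authors. Of the counts in these 16 libraries, 50.45% and 49.91% fell on each strand, so the unstranded count was used. Reads in overlaps of genes on opposite strands therefore cannot be assigned by strand. Reads that match near-identical genes equally count as multimapping and are not assigned to a gene. Rows that name no gene were left out of library sizes and given as shares of all reads, which were 10.4 to 49.1% for multimapping, 8.69 to 27.2% for no annotated gene, 0.872 to 2.27% for unmapped and 0.232 to 0.334% for ambiguous reads. No 2 of the 16 libraries were duplicates (120 pairs, lowest chi-square per degree of freedom 33.44).

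Counts were analysed with edgeR 4.0.16 (TMM, filterByExpr, robust quasi-likelihood test, Benjamini-Hochberg adjustment) in R 4.3.3, with DESeq2 1.42.0 as an alternative. Interactions used all libraries of both breeds at both ages. CPM values were scaled by TMM over all 88 libraries, and log2 CPM used a prior count of 2. SEs were taken from the log2 fold change and the F value. Permutation tests used scipy in Python 3.11. Each calf was matched across ages by its tag number. The deviations of the 48 h and 72 h libraries from their group means correlated at a mean r of 0.417 within a calf (from -0.045 in calf 5 to 0.748 in calf 1) and -0.0504 between calves (exact permutation test over 40320 pairings, two-sided, p = 4.96e-05). The fits were tested on simulated data.

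The genes named were to be DEG with a symbol. With 0 DEG in edgeR and no symbols, the rule gave the 6 smallest unadjusted p-values in each direction, of which the first 2 are named. Gene lists and cell markers could not be applied, since 0 of 24616 identifiers matched. The comparison, rules and lists were chosen with earlier results of these data known. The fits without calf 5 beyond its omission in turn were added after the data were seen.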

Additional observations from a re-analysis of the deposited data

Results flagged for a closer look

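In 22 groups of 8 H calves, the highest or lowest calf was tested for a gap to the others above Dixon's 95% critical value. Of these, 12 were flagged. Chance flags about 1 in 20 groups that are independent, but these groups hold linked measures of the same libraries. The count of flags therefore does not measure an excess over chance. Calf 5 was flagged for its RMS change from 48 h to 72 h, 1.27 log2 units. Its RMS distance to the other calves at 72 h was not among the flags.

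Calf 6 was flagged in 10 groups. At 48 h these were its multimapping share of 49.1%, its 8.69% of reads on no annotated gene, the 23.1% of counts on its most counted gene and its RMS distance of 0.88. At 72 h they were its multimapping share of 45.7% and its 8.92% of reads on no annotated gene. Among the named genes they were ENSBTAG00000016746 at 17.0 CPM at 48 h and 35.3 CPM at 72 h, ENSBTAG00000014435 at 17.5 CPM at 72 h and ENSBTAG00000013366 at 15.4 CPM at 72 h. Without calf 6 the count of DEG stayed at 0 (edgeR, 1100 genes with an unadjusted p under 0.05). The remaining flag was calf 3 at 48 h for ENSBTAG00000018446, at 92.6 CPM.

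The change of ENSBTAG00000013366 from 48 h to 72 h differed between H and CL calves by -3.07 on the log2 scale (edgeR interaction test, adjusted p = 0.011). It was lower in 5 of 8 H calves at 72 h and higher in 7 of 7 CL calves.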

How the results depend on the processing

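The count of 0 DEG in H calves was also 0 without the replicate block (788 genes with an unadjusted p under 0.05 in edgeR), with RLE size factors, with at least 10 counts in every library, with all 32 H libraries, without the fold change threshold, in the test against a fold change of 1.5 and without the 2 calves whose 48 h label ends in R. It was 18 in DESeq2 with the block, 10 in DESeq2 without it, 1 without a filter on low counts, 14 with all 88 libraries in the fit and 6 when the L number of the library was added. The labels do not state what the L number or the ending R means. In every H calf the L number differed between 48 h and 72 h, so each change within a calf also crosses L numbers. Leaving out each calf in turn gave 0 to 78, and 78 was reached without calf 5 alone.

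Without calf 5, the 78 DEG became 0 without the replicate block, 335 in DESeq2, 80 with RLE size factors, 62 with at least 10 counts in every library and 0 when tested against a fold change of 1.5. Leaving out a further calf gave 9 to 55. The difference between H and CL calves was 1 gene with RLE size factors, with all 88 libraries and without the fold change threshold, 0 without the replicate block, 43 in DESeq2, 2 without a filter, and 48 in DESeq2 without calf 5. The difference between H and LF calves was 0 in every alternative run. The same-calf correlation behind the pairing was 0.384 over 8420 genes of at least 10 CPM and 0.509 without calf 5. The cause was not tested for any of these shifts. The direction of the 4 named genes was the same in the 19 alternatives run for each, and at most 4 alternatives brought one past the threshold. The floor of 3 counts was a chosen value, which corresponded to 0.116 to 0.189 CPM at these depths before TMM scaling.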
